A study of Mus musculus with 4 samples.

Results

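Salt-inducible kinases, CREB-regulated transcription coactivators (CRTCs), class IIa histone deacetylases and their MEF2 partners form a route from cAMP to CREB and MEF2 target genes. The phospho-CREB regions around 10 of their genes were described. The genes were the kinases Sik1, Sik2 and Sik3, the coactivators Crtc1, Crtc2 and Crtc3, the deacetylases Hdac4 and Hdac5, and the transcription factors Mef2c and Mef2d. All 10 were chosen by name and not by a measured value, although earlier results of these data were known. A region was assigned to a gene when its centre lay inside the gene or within 100 kb of one of its annotated transcription start sites (TSS), which gave 94 of the 28335 regions of the study, none of them shared between 2 of the genes. Hdac4 is split into 2 gene models in the mm9 annotation, and both were used.

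The study used MC3T3-E1 cells, a pre-osteoblast line of the mouse, and ChIP-seq with an antibody to CREB phosphorylated at serine 133. One group received 100 nM forskolin for 1 h, an activator of adenylyl cyclase that raises cAMP, and the other DMSO vehicle for the same time. Both groups were grown in the same serum-containing medium, no hormone was applied, and no genetic change is named in the labels. Each group had 2 libraries, and the deposited data are 1 peak list per library with a position and a score for each peak. As a check of the cell label, all 7 osteoblast genes examined had a region within 10 kb of a TSS, against 1 of 3 adipocyte, 1 of 3 skeletal muscle and 1 of 2 haematopoietic genes and 55.1% of all genes. A phospho-CREB peak does not measure expression, so this check is only a description.

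Salt-inducible kinases phosphorylate the CRTCs and the class IIa deacetylases, and 14-3-3 proteins then hold the phosphorylated proteins in the cytoplasm. Protein kinase A, which cAMP activates, phosphorylates the salt-inducible kinases and restrains them, so that CRTCs enter the nucleus and bind CREB while the deacetylases enter and repress MEF2 factors. In bone, parathyroid hormone acts through this route, and in osteocytes MEF2C drives Sost, the gene of the Wnt inhibitor sclerostin. Sik1 is itself a well-known CREB target, induced when cAMP rises.

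Regions of the 10 genes were called more often in the forskolin libraries, and the classes of call were close to those of the whole study. Peaks were present in 82 and 67 of the 94 regions in forskolin replicates 1 and 2, and in 54 and 42 in vehicle replicates 1 and 2. Forskolin libraries thus had 74.5 ± 10.6 called regions and vehicle libraries 48 ± 8.49 (mean ± SD, n = 2 per group). The difference was 26.5 and the groups did not overlap. An exact two-sided permutation test over libraries gave p = 0.333, the smallest value that 2 libraries against 2 allow. Over all regions the shares called were 90.2% and 68.4% in the forskolin and 51.8% and 35.9% in the vehicle libraries, against 87.2% and 71.3%, and 57.4% and 44.7%, of the 94. The forskolin lists were longer, with 25566 and 19371 peaks against 14686 and 10180. With every list shortened to its 10180 highest scores, the difference turned to -2 (exact permutation p = 0.333), so its direction depends on list length.

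Regions with peaks in forskolin replicates 1 and 2 but in no vehicle library were termed forskolin-only, and the reverse vehicle-only. There were 17 forskolin-only regions (18.1%, against 18.3% of all regions) and 35 regions called in all 4 libraries (37.2% against 31.5%). In addition, 9 were called in both forskolin libraries and 1 vehicle library (9.57% against 12.1%), 4 in both vehicle libraries and 1 forskolin library (4.26% against 1.40%) and 26 in 1 library (27.7% against 30.2%), which leaves 2 called in 1 library of each treatment (2.13% against 6.11%). Of the 26, 16 were peaks of forskolin replicate 1, which has the longest list, against 6164 of the 8546 such regions over the study. Forskolin replicate 2 gave 5 of the 26 (1571 of the 8546). Vehicle replicate 1 also gave 5 (671 of the 8546) and vehicle replicate 2 gave 0 (140 of the 8546). The single vehicle-only region (1.06% against 0.441%) lay near Hdac5. The share of forskolin-only regions was thus the background share. Their number was 9 with the top 50% of each list, 5 with equal lists and 33 without forskolin replicate 2. The vehicle-only number was 3 with equal lists, 6 without vehicle replicate 2, 4 without forskolin replicate 1 and 2 without forskolin replicate 2. With a library left out the rule for each class is looser, so such numbers could rise but hardly fall. Shares of all regions at these settings were not compared.

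**Figure D1:**
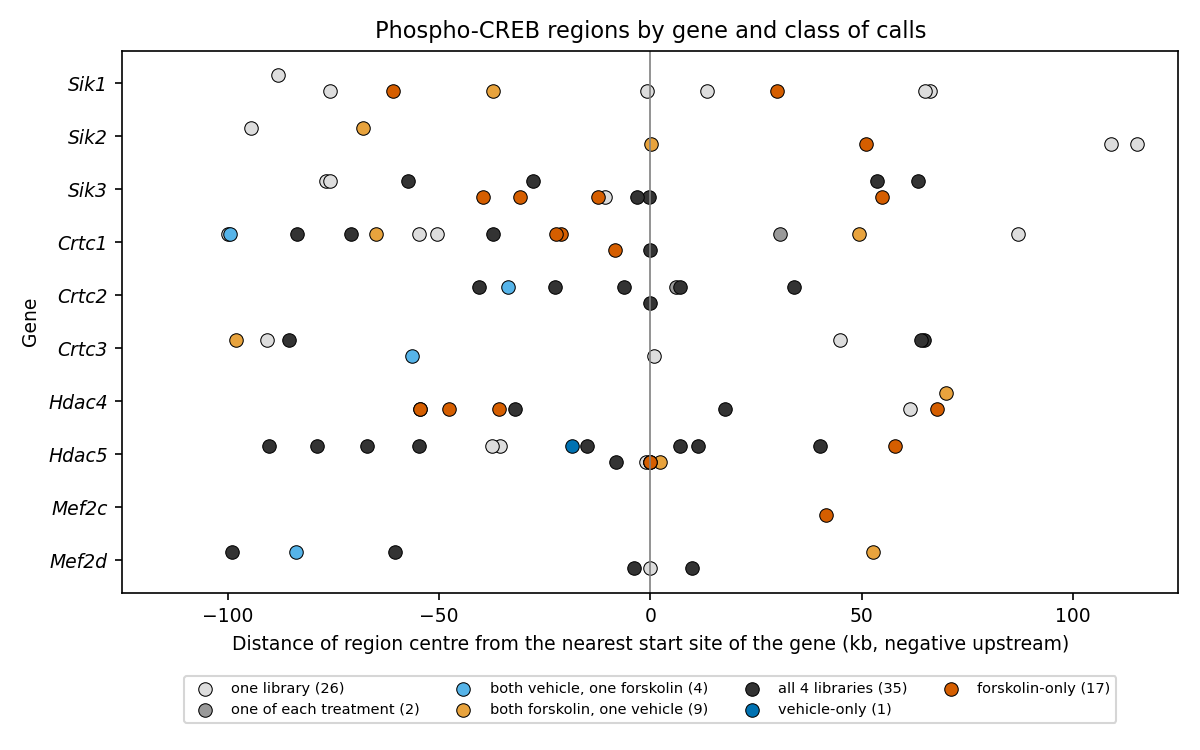
Each point is 1 of the 94 regions, placed by the distance of its centre from the nearest TSS of the gene (horizontal, kb, negative upstream) and coloured by the libraries that called it, with the number of regions of each class in the key. In each gene's band the lower row holds regions inside the gene or nearer to its TSS than to any other coding TSS, and the upper row those nearer to a neighbour. The 17 forskolin-only points lie mostly away from distance 0, and Crtc2, Crtc3 and Mef2d have none.

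Many of the regions lay at neighbouring genes. Of the 94 regions, 42 lay inside one of the 10 genes or had its TSS as the nearest coding TSS, and 52 were nearer to the TSS of a neighbour, 34 of these within 1 kb of it. The 42, with 11 within 1 kb of their nearest coding TSS, held 14 forskolin-only regions and 10 of all 4 libraries. The 52 held 3 and 25. The same split was not made over all regions. Of the 94, 45 (47.9%) lay within 1 kb of a coding TSS, against 35.8% of all regions. Position bears on the class, since over the whole study 24.8% of regions more than 1 kb from a coding TSS, and 6.61% of those within 1 kb, were forskolin-only. Around the 10 genes these shares were 16 of 49 (32.7%) and 1 of 45 (2.22%). Regions of all 4 libraries made up 26 of the 45 promoter regions (57.8% against 58.9%) and 9 of the 49 distal ones (18.4% against 16.2%). Just inside the 100 kb limit lay 4 regions, at 98165, 99139, 99398 and 99886 bp, and just outside it 1, at 100261 bp from Crtc1.

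**Figure D2:**
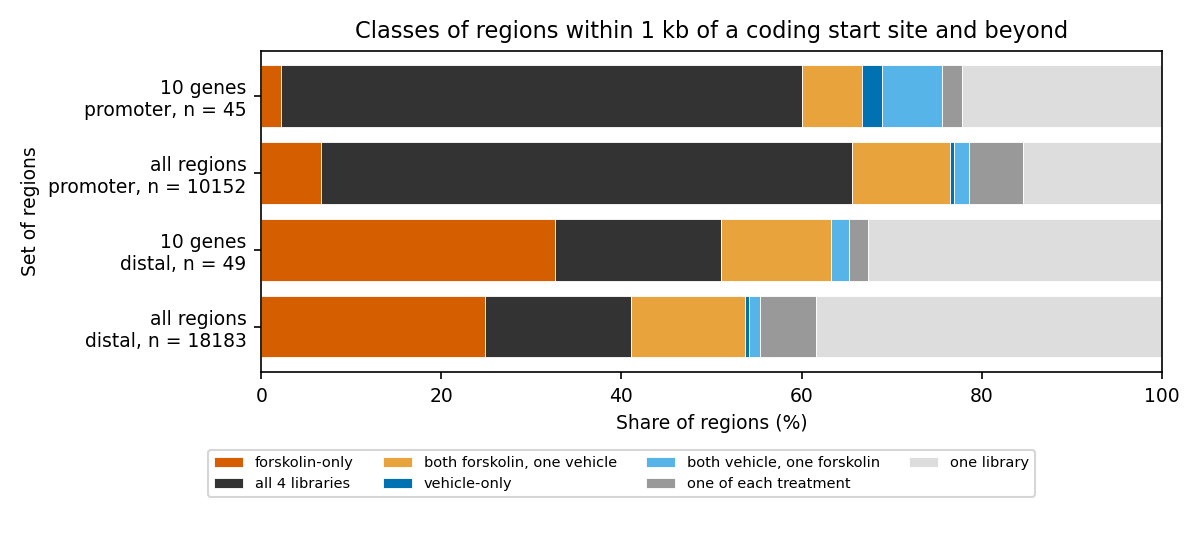
Bars show the share of regions (horizontal, %) in each class of calls, for regions within 1 kb of a coding TSS (promoter) and farther out (distal), around the 10 genes and over the whole study. Both distal bars hold more forskolin-only regions (32.7% and 24.8%) than the promoter bars (2.22% and 6.61%), and both promoter bars are mostly regions of all 4 libraries (57.8% and 58.9%).

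By gene, all 10 had a region of some class inside the gene or within 100 kb, against 79.8% of the 22238 protein-coding genes, and 7 of the 10 had one that was forskolin-only, against 40.0%. They were Sik1, Sik2, Sik3, Crtc1, Hdac4, Hdac5 and Mef2c. With equal lists 3 kept one, namely Sik1, Sik3 and Crtc1, and the share of all genes at that setting was not compared. Regions of all 4 libraries were also assigned to 7 of the 10, against 67.2%. The kinases, coactivators, deacetylases and Mef2 genes had a median of 8.5 regions each, and protein-coding genes a median of 4. The 10 genes are longer, with a median length of 79.7 kb against 15.5 kb, and the part of gene length in these counts was not tested. Inside the gene or within 10 kb, again all 10 had a region (57.7% of genes), and 6 had one of all 4 libraries (39.2% of genes). Counting only the 10 kb around each TSS, forskolin-only regions were left for 2 of the 10, Crtc1 and Hdac5 (8.88% of genes), and regions of all 4 libraries for 5 (37.5% of genes). Within 1 kb, 8 of the 10 had a region (44.5% of genes), Hdac5 had a forskolin-only one (3.11% of genes), and 4 of the 10 (Sik3, Crtc1, Crtc2 and Hdac5) had a region of all 4 libraries (30.3% of genes).

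**Figure D3:**
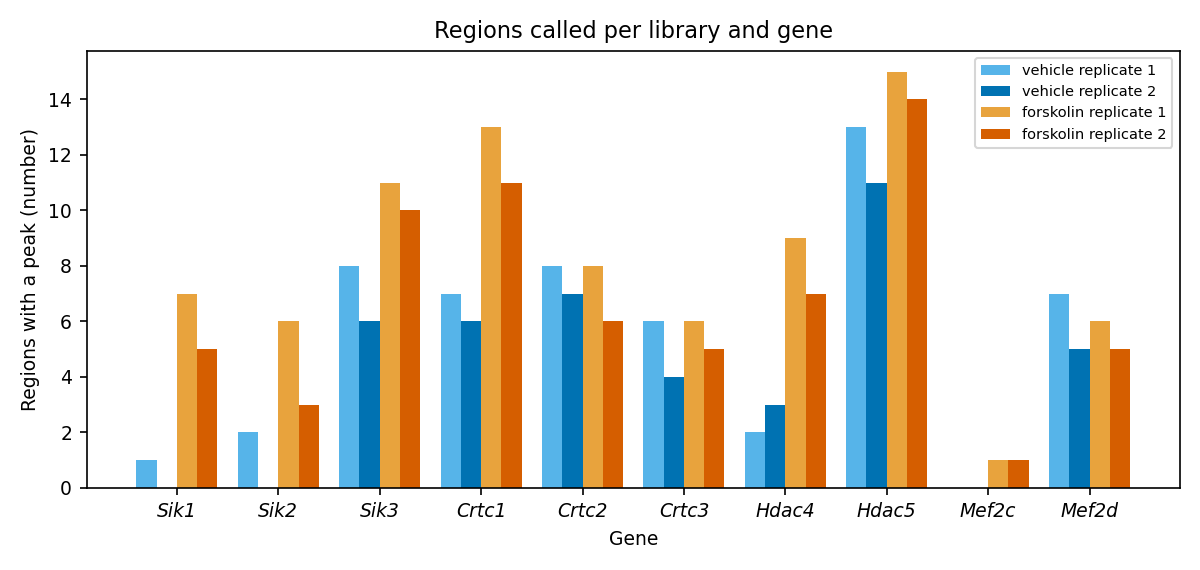
Bars give the number of regions with a peak (vertical) in each of the 4 libraries (colours) for each gene (horizontal). Sik1, Sik2 and Mef2c had 0 regions called in vehicle replicate 2 and at most 2 in vehicle replicate 1, while Crtc2, Crtc3 and Mef2d had similar numbers in all 4 libraries.

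Among the kinases, Sik1 was called mainly under forskolin. Its 9 regions were called 7 and 5 times in forskolin replicates 1 and 2, 1 time in vehicle replicate 1 and 0 times in vehicle replicate 2. Of the 9, 6 were called in 1 library only. Calls over all regions also leaned to forskolin, at 90.2% and 68.4% against 51.8% and 35.9% under vehicle. No region of all 4 libraries lay inside Sik1 or within 100 kb of its TSS, and no peak of any library covered that TSS. The nearest region was centred at -718 bp (chr17:31993300-31993610) and was called in forskolin replicate 1 only, with a deposited score of 14.1, at percentile 46.8. Percentiles give the share of peaks in the same list with a lower score. The scores are the authors' own, their scale is not stated, and lists of different lengths make percentiles of different libraries only roughly comparable.

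Forskolin-only regions of Sik1 lay far from the gene, at -60887 bp (chr17:32053462-32053785) and at 29982 bp beyond the TSS, downstream of the gene (chr17:31962597-31962913). The upstream one had scores of 24.8 and 23.4 in the forskolin lists, at percentiles 72.2 and 73.7. It was kept with the top 50% of each list and with equal lists. The downstream one had 12.2 and 13.1, at percentiles 38.9 and 42.2, and it was kept with neither. A further region at -37186 bp (chr17:32029750-32030095) was called in both forskolin libraries at percentiles 76.8 and 74.8, and in vehicle replicate 1 at 13.3. In that region the vehicle peak ranked low in its list and both forskolin peaks ranked high in theirs. The window of the upstream forskolin-only region is shown because it is the highest-ranked region that Sik1 had under forskolin alone. It runs 100 bp to either side of the centre (chr17:32053524-32053724, plus strand), and capitals mark the CRE core TGACG, the common part of cAMP response elements, on either strand. The window at -37186 bp, a region ranked higher in both forskolin lists, held no CRE core and is not shown.
Sik1 -60887 bp: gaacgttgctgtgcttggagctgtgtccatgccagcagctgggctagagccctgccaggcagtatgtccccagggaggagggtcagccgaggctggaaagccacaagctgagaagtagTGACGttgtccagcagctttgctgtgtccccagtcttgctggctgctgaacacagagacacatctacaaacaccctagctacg

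Among the other kinases, Sik2 followed Sik1 in having no region of all 4 libraries, and Sik3 did not. Sik2 had a region over its first exon, 262 bp inside the TSS (chr9:50816754-50817078), called in vehicle replicate 1 and both forskolin libraries at percentiles 32.1, 46.8 and 24.8, so that the forskolin values lay on both sides of the vehicle one. Its forskolin-only region lay in an intron, 50977 bp from the TSS (chr9:50766046-50766356), at percentiles of only 14.1 and 29.6. The highest-ranked region assigned to Sik2 (percentiles 64.8 in vehicle replicate 1, 78.9 and 80.1 in the forskolin lists) lay 32 bp from the TSS of Layn, a neighbouring gene. By a rule of the same libraries and the closest percentile, the promoter regions most like that of Sik1 were those of Sertad2, Cald1 and Epb4.1l2, but 4 genes lay as close as the third of these, the likeness rests on 1 library, and 681 genes had a promoter region called there alone.

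Sik3 had 13 regions, 6 of them of all 4 libraries and 4 forskolin-only. Its promoter region, centred at -272 bp (chr9:45820463-45820798), had scores of 16.5 and 15.9 under vehicle and 53.5 and 35.1 under forskolin. These stood at percentiles 71.5 and 74.2 against 90.8 and 85.8, so both forskolin percentiles lay above both vehicle percentiles, in lists of different length. An intronic region of all 4 libraries, 3048 bp before an internal TSS (chr9:45928070-45928473), ranked at 53.2 and 49.7 against 76.5 and 75.8. Sik3's own forskolin-only regions were all intronic. They lay at 54907 bp (chr9:45875834-45876145, percentiles 25.7 and 49.0), -39528 bp (chr9:45891581-45892002, 66.9 and 57.0), -12466 bp (chr9:45918692-45919016, 51.1 and 19.6) and -30971 bp (chr9:45996467-45996898, 5.6 and 14.5) from the nearest TSS of the gene, internal ones included. Of the 4, the second was kept with equal lists.

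Among the coactivators, Crtc1 had 3 forskolin-only regions, and all 3 lay upstream of it. The one at -8337 bp (chr8:72971568-72972062, between genes) had percentiles 54.2 and 57.0. Those at -21121 bp (chr8:72984415-72984782, percentiles 66.4 and 66.7) and -22408 bp (chr8:72985724-72986048) lay inside Klhl26 and were nearer to its TSS. The last had scores of 49.2 and 38.6, at percentiles 89.4 and 87.7, the highest of the 17 forskolin-only regions in both lists. The 2 in Klhl26 were kept with the top 50% of each list and with equal lists, and the one at -8337 bp with the former only. The Crtc1 promoter region at -163 bp (chr8:72963461-72963821) was called in all 4 libraries at percentiles 42.5 and 33.1 under vehicle and 64.1 and 10.2 under forskolin, so the forskolin values lay above and below the vehicle ones. The window of the highest-ranked forskolin-only region (chr8:72985786-72985986, plus strand) held an AP-1 site, TGAGTCA, and a CRE core in its reverse form, both in capitals.
Crtc1 -22408 bp: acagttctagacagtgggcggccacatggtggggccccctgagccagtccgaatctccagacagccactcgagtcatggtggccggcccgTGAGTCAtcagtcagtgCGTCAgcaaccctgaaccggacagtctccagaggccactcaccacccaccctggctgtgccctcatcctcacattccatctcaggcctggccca

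Crtc2 and Crtc3 had no forskolin-only region with all lists in full. Crtc3 had one with the top 50% of each list, and without vehicle replicate 1, forskolin replicate 1 or forskolin replicate 2. Crtc2, the coactivator best known from hepatic glucose production, had its promoter region 14 bp inside a TSS (chr3:90057932-90058265) in all 4 libraries, with scores of 32.2 and 21.7 under vehicle and 56.3 and 60.6 under forskolin. The percentiles were 90.8 and 84.2 against 91.6 and 94.6, so the region ranked high under both treatments. Of the 8 regions assigned to Crtc2, 7 were nearer to neighbours, among them Rab13, Jtb, Slc39a1 and Dennd4b. Crtc3 had no region within 1 kb of its upstream start. The region nearest to a Crtc3 TSS lay in an intron, 838 bp beyond an internal start (chr7:87773519-87773829), and was called in forskolin replicate 1 only, at percentile 4.3. The 3 regions of all 4 libraries assigned to Crtc3 lay at or near Blm and Iqgap1. One of them, 675 bp from a Blm TSS (chr7:87679040-87679378), held 2 full CREs and ranked at 45.9 and 19.7 under vehicle and 84.8 and 73.7 under forskolin.

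Both deacetylase genes had distal regions near the top of the forskolin lists. Hdac4 had no region within 1 kb of a TSS and 9 farther out, of which 2 were called in all 4 libraries and 4 were forskolin-only. The region 17719 bp inside the gene, in an intron (chr1:94027086-94027415), had scores of 37.6 and 27.4 under vehicle and 152.5 and 100.5 under forskolin, at percentiles 92.8 and 88.9 against 98.9 and 98.3. The other, at -32154 bp between genes (chr1:94076888-94077360), ranked at 84.5 and 73.5 against 89.1 and 89.6. In both, the forskolin percentiles lay above both vehicle percentiles. The forskolin-only regions were weaker, at 67937 bp (chr1:93976815-93977251, intron, percentiles 42.1 and 3.9), -35729 bp (chr1:93938879-93939443, intron, 5.6 and 14.5), -54598 bp (chr1:93957863-93958196, intron, 58.6 and 38.4) and -47614 bp (chr1:94092401-94092766, between genes, 22.6 and 3.9). None of these 4 was kept with equal lists.

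Hdac5 had 18 regions, more than any other of the 10 genes, but 12 of them were nearer to the TSS of a neighbour. Inside or nearest to the gene it had 6, fewer than Sik1 (8), Hdac4 (8) and Sik3 (7). Among the 18 was the region with the highest forskolin percentiles of all 94. It lay between genes at -15104 bp (chr11:102106380-102106787), 3612 bp from a TSS of BC030867, and was called in all 4 libraries. Its scores were 20.4 and 11.0 under vehicle and 342.7 and 223.0 under forskolin. Counted from the top, it ranked at 2921 of 14686 and 4651 of 10180 vehicle peaks, and among forskolin peaks at 14 of 25566 and 16 of 19371. The percentiles were 79.8 and 53.1 against 99.9 and 99.9. Over the study, 13 of the 8930 regions of all 4 libraries stood this high in both forskolin lists, and 2 of the 13, this one included, had both vehicle percentiles at or under 79.8. A gap at least as wide between the lower forskolin and the higher vehicle percentile was found in 1001 of the 8930 (11.2%). The width of its gap was thus not rare, but percentiles have a ceiling. From a vehicle percentile of 79.8, its gap of 20.1 could hardly be wider, so this count cannot show how rare its rise was.

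The windows of these Hdac4 and Hdac5 regions are shown because they ranked highest under forskolin among regions of the deacetylase genes that touch no exon. They lie at chr1:94027151-94027351 and chr11:102106484-102106684, plus strand. Each held 2 CRE cores, and the Hdac5 window also an AP-1 site in its reverse form, all in capitals. Neither held the full palindromic CRE, TGACGTCA. The window at -54598 bp, from the highest-ranked forskolin-only region of Hdac4, held no CRE core or AP-1 site and is not shown.
Hdac4 17719 bp: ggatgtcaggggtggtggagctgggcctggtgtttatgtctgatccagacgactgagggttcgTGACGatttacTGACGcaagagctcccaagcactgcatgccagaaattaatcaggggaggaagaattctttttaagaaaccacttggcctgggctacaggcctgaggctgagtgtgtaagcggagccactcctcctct
Hdac5 -15104 bp: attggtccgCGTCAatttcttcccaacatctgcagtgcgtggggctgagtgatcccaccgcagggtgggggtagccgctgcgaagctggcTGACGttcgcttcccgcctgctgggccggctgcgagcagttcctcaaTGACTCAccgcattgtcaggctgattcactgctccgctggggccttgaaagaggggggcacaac

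Nearer to Hdac5, the calls were mixed. The region at -119 bp from the upstream start (chr11:102091425-102091772) was called in all 4 libraries at percentiles 27.8 and 35.8 under vehicle and 73.1 and 42.2 under forskolin. A forskolin-only region lay at -27 bp from an internal TSS, in an exon (chr11:102085932-102086259), at percentiles 45.9 and 19.6, and was not kept with equal lists. No other forskolin-only region of the 10 genes lay within 1 kb of their TSSs. In introns, a region at -8185 bp (chr11:102070086-102070543) ranked at 13.3 and 60.0 against 92.1 and 78.7, and one 2198 bp beyond an internal TSS (chr11:102077868-102078220) was called in vehicle replicate 1 at 44.3 and in the forskolin lists at 92.0 and 72.6. The second forskolin-only region of Hdac5 lay at 57959 bp (chr11:101999758-102000068) at percentiles of only 2.2 and 3.9. The vehicle-only region at -18590 bp (chr11:102109904-102110236) lay 126 bp from a TSS of BC030867 and ranked at 61.1 and 33.1.

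The Mef2 genes differed in their calls and ranks. Mef2c, whose protein the class IIa deacetylases repress, had a single region, the fewest of the 10 genes. This was forskolin-only and intronic, 41508 bp from a TSS (chr13:83705315-83705652), with scores of 8.1 and 7.6 at percentiles 14.1 and 6.7, and was not kept with the top 50% of each list or with equal lists. Mef2d had no forskolin-only region, except without vehicle replicate 1, and its highest-ranked region, at -3929 bp between genes (chr3:87942204-87942525), was among the strongest peaks under both treatments. Its scores were 85.8 and 57.6 under vehicle and 215.3 and 123.9 under forskolin, at percentiles 98.9 and 97.9 against 99.6 and 99.1. A region at 9802 bp (chr3:87981798-87982154) also ranked alike in all lists, at 93.7 and 89.3 against 93.6 and 89.9. At the Mef2d TSS itself, a region centred at -138 bp (chr3:87946006-87946306) was called in vehicle replicate 1 only, with a score of 33.9 at percentile 91.6. The other 3 lists had no peak there.

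The windows shown are those of the highest-ranked region of Mef2d and of the single region of Mef2c. The Mef2d window (chr3:87942265-87942465, plus strand) held a full CRE and a further CRE core near its centre, and the Mef2c window (chr13:83705384-83705584, plus strand) 2 cores in their reverse form, all in capitals.
Mef2d -3929 bp: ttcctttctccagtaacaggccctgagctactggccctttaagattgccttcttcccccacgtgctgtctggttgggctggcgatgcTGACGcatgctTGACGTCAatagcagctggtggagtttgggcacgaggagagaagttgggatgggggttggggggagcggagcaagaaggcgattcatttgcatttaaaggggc
Mef2c 41508 bp: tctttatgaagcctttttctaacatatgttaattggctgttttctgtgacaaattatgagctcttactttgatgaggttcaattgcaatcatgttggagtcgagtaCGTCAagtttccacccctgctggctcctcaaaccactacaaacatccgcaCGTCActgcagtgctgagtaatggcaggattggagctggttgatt

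**Figure D4:**
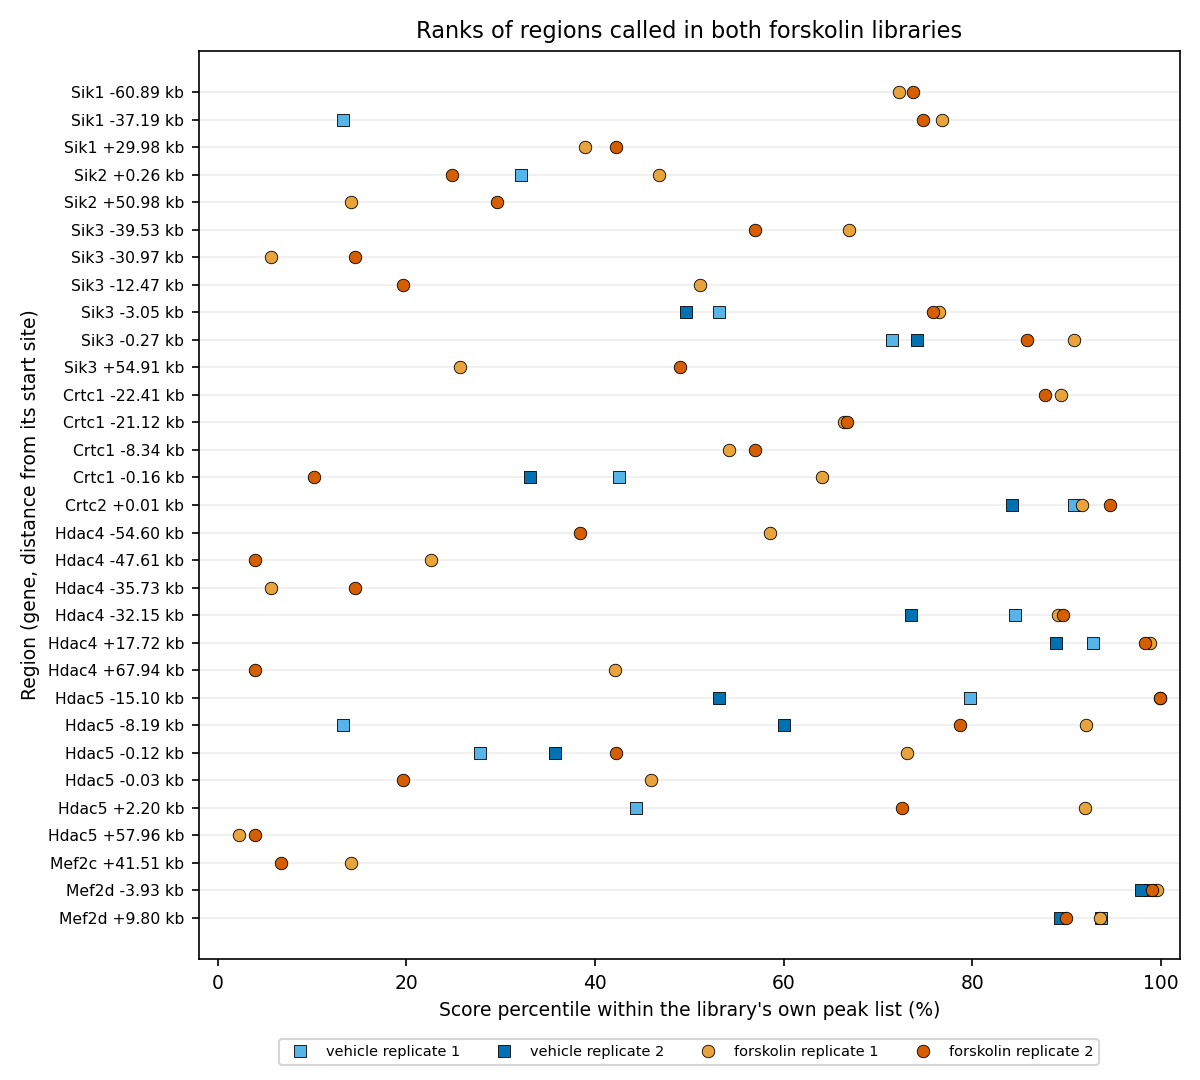
Points give the score percentile of a region within the peak list of its library (horizontal, %), for regions called in both forskolin libraries that lie inside or nearest to 1 of the 10 genes, with the remaining forskolin-only regions and the Hdac5 region at -15104 bp (vertical, by gene and distance from its TSS). Squares are vehicle and circles forskolin libraries, and a library without a point had no peak. The Hdac5 region at -15104 bp runs from 79.8 and 53.1 under vehicle to 99.9 and 99.9 under forskolin, while the Mef2d regions at -3929 and 9802 bp have all 4 points close together.

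Across the 35 regions of all 4 libraries, both forskolin percentiles lay above both vehicle percentiles in 17 (48.6%, against 43.8% of all such regions), and below them in 2 (5.71% against 2.44%). These shares were close to the background. The 2 with lower forskolin percentiles were at neighbours of Mef2d (Gpatch4, -99139 bp from Mef2d, percentiles 80.5 and 49.7 against 47.7 and 1.0) and of Hdac5 (Tmub2, -54739 bp, 98.8 and 98.7 against 98.6 and 98.4). The latter differed by less than 1 percentile. Among the 17 with higher forskolin percentiles, the narrowest gaps were also under 1. They were 0.2 for Mef2d at -3929 bp and 0.8 for Crtc2 at 14 bp, from the higher vehicle to the lower forskolin percentile. Median percentiles of the 17 forskolin-only regions were 42.1 and 29.6 in the forskolin lists, against 44.2 and 29.6 for all forskolin-only regions. Those of the 35 were 81.8 and 78.7 under forskolin and 75.7 and 67.8 under vehicle, against 77.1 and 69.7, and 66.9 and 54.3, for all regions of 4 libraries.

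Sequence features that the choice of genes did not use were looked for on either strand, up to 100 bp from each centre. The CRE core TGACG, which also occurs inside each full CRE, was present in 33 of the 94 regions (35.1%, against 29.1% of all regions). The full CRE, TGACGTCA, was present in 3 (3.19% against 3.53%), those of Mef2d at -3929 bp, near Blm and near Lsm12, the last 2 assigned to Crtc3 and Hdac5. The AP-1 site TGAGTCA was present in 9 (9.57% against 13.9%). Among the 17 forskolin-only regions 8 held the core (47.1%, against 38.6% of all forskolin-only regions), 3 an AP-1 site (17.6% against 21.8%) and 0 a full CRE (3.59% of all). Searched over the whole region, 5 of the 17 held an AP-1 site (29.4% against 29.2%). A match describes the letters in the window and not a binding site. Of the 17, 9 lay in introns of the 10 genes, 1 in an exon and 7 outside them. The same placement was not counted over all forskolin-only regions, so these numbers have no background beside them.

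Other genes of the route were taken from a list of 23 that covers the LKB1 complex, which activates the salt-inducible kinases, the 14-3-3 proteins, the phosphatase calcineurin, which dephosphorylates CRTCs, the remaining class IIa deacetylases and MEF2 factors, and Hdac3 with its partners. All 23 had a region inside the gene or within 100 kb. Forskolin-only regions were present for 11 of the 23 (40.0% of genes) and a region of all 4 libraries for 20 (against 67.2%). Within 10 kb or inside the gene, forskolin-only regions were found for 4 of the 23 and for 6 of the 10 genes above (12.3% of genes). With gene bodies left out, 2 of the 10 had one (8.88% of genes), and the part of gene length was not tested. For the 23 that count was not made. Among the 4 were Cab39, a scaffold of the LKB1 complex, Hdac7, a class IIa deacetylase, and Hdac3, a class I deacetylase. The Hdac7 region was intronic (chr15:97647171-97647528, -2056 bp from the nearest TSS) and stood at percentiles 87.1 and 29.6. The region of Cab39 covered its promoter at -55 bp (chr1:87689799-87690123) but ranked lowest in its list in forskolin replicate 1 (percentile 0) and at 6.7 in replicate 2. Of the 14-3-3 and calcineurin genes, 0 had a forskolin-only region inside the gene or within 10 kb. Beside 12.3% of all genes, these families are too small for that to set them apart.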

How the data were processed

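Peak lists of 4 libraries (2 per treatment, grouped by sample title) were used as deposited, in mm9 coordinates. Bowtie and HOMER are named in the submitters' processing notes, without versions. For thresholds, the control used and repeated reads, settings are not given in the sources used. The deposited score of a peak has no stated scale, so it was ranked within its own list. Below 50, at least 99.9% of scores lay within 0.051 of whole multiples of 0.232, 0.224, 0.239 and 0.688 in the order vehicle replicate 1, vehicle replicate 2, forskolin replicate 1, forskolin replicate 2. If 1 step is 1 tag, forskolin replicate 2 had 0.347 times the depth of forskolin replicate 1, and the vehicle libraries 1.03 and 1.06 times. The authors do not state this, so depth is otherwise unknown.

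Peaks sharing at least 1 bp were merged, a region took its highest score per library, and regions were assigned with GENCODE M1 on NCBIM37 (mm9), on which all 28335 regions fitted. Genes were counted by symbol. Merging and assignment were tested on simulated lists. Python 3.11.15, numpy 2.4.6 and matplotlib 3.10.9 were used. Named were all 10 genes, each forskolin-only region, each region nearest to a TSS, and others that help to place these. The genes, the list of 23 and the rules were chosen with earlier results of these data known. Marker Spi1 matched no symbol. The labels call the libraries biological replicates. Of the list of 23, 1 gene is counted but its regions are not reported here.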

Additional observations from a re-analysis of the deposited data

How the results depend on the processing

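With the top 50% of each list there were 52 regions around the 10 genes, 9 forskolin-only and 21 of all 4 libraries. With equal lists of 10180 peaks there were 60, 5 forskolin-only and 3 vehicle-only, 3 genes had a forskolin-only region, and the difference in called regions per library was -2. The shorter lists themselves set these values, and shares over all regions and genes at these settings were not compared. Inside the gene or within 10 kb there were 35 regions, 11 forskolin-only, 0 vehicle-only and 12 of all 4 libraries, and within 1 kb of a TSS 11, 1, 0 and 4, with 1 gene having a forskolin-only region. Regions inside or nearest to 1 of the 10 genes numbered 42, with 0 vehicle-only and 10 of all 4 libraries. Joining peaks at 50% of the shorter peak or within 500 bp, leaving out gene bodies and using coding transcripts changed no count by over 1.5 times. A motif search of whole regions moved the forskolin-only regions with an AP-1 site from 3 to 5, and no other motif count of the 94 or the 17 by over 1.5 times. Leaving out 1 library in turn gave 19 to 33 forskolin-only and 1 to 6 vehicle-only regions and 36 to 42 regions of all remaining libraries. It gave 7 to 9 genes with a forskolin-only region and differences of 19 to 34. With a library left out the rule for each class is looser, so these class counts could rise but hardly fall. A replicate block, with the difference taken within each replicate number, gave 28 and 25, a mean of 26.5. The labels do not say that numbers pair libraries, and 2 pairs allow no useful test. Depth is not stated, the lists differ in length, and a region without a peak is not shown to be unoccupied.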
